A study of Mus musculus with 11 samples.

Results

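This account describes what loss of Mpst was accompanied by in the aorta of obese, hypertensive mice. It compares the 3 libraries labelled Mpst knockout (KO_HFD_LNAME) with the 4 wild-type libraries given the same diet and drug (WT_HFD_LNAME), which are 7 of the 11 RNA-seq libraries of the series, across all measured genes. All 7 came from mice on the C57BL6/J background named in the labels, which were 6 to 7 weeks old when they were placed on food with 45% of calories from fat. The diet ran for 15 weeks and was followed by 5 more weeks with L-NAME, an inhibitor of nitric oxide synthases that raises blood pressure. The other 4 libraries (WT_CD) were wild type and ate chow (10% of calories from fat), and their values are given beside some results. Chow libraries 1 and 2 held 10.1% and 17.4% of counts on the ribosomal RNA gene Rn45s, against 0.815% to 2.98% in the other 9 libraries. With both left out of the fit, Tnip1 had an adjusted p of 0.0266 (edgeR). No knockout library from chow-fed mice was analysed here, so a difference here describes the knockout under diet and L-NAME and not the knockout alone. The tissue was the entire aorta from arch to abdomen, stripped of surrounding fat. The labels name neither the allele nor separate animals for the libraries, so p-values cover only the scatter among these libraries, which may be technical.

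MPST (3-mercaptopyruvate sulfurtransferase) transfers sulfur from 3-mercaptopyruvate, a product of cysteine breakdown, to protein thiols and small acceptors, and is counted with Cth and Cbs among the mammalian enzymes that make hydrogen sulfide. Hydrogen sulfide and the persulfides made from it relax vessels, act on mitochondrial respiration and have been studied as brakes on vascular inflammation. NF-kB, a family of transcription factors that inflammatory receptors activate, induces adhesion molecules, chemokines and its own inhibitors in the vessel wall. Among those inhibitors are the IkB proteins, the ubiquitin-editing enzyme A20 (gene Tnfaip3) and the A20-binding protein TNIP1 (also called ABIN-1).

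The libraries held 11562151 to 15340697 counts, and 14303 of 27179 genes in the count table were tested. Values below are CPM (counts scaled to a common library size) on library sizes scaled with TMM factors. On that scale 3 counts in a library were 0.170 to 0.282 CPM. Smooth muscle markers defined the tissue in both groups: the 26 contractile genes summed to 32640 to 41217 CPM in the knockout and 22819 to 42154 CPM in the wild type. Endothelial and adventitial fibroblast markers were likewise present in every library. Composition was uneven within groups. The 20 cardiac markers summed to 1258 and 3178 CPM in wild-type libraries 3 and 4 and to 185 to 284 CPM in the other 5 libraries. B cell markers summed to 892 CPM in knockout library 1 and 609 CPM in wild-type library 3, against 226 to 376 CPM elsewhere. Genes of the mitochondrial genome took 17.2%, 12.3% and 15.8% of counts in the knockout and 17.2%, 25.8%, 27.8% and 11.7% in the wild type, a mean difference of -5.50 percentage points (exact permutation test over 35 splits, two-sided p = 0.343; a single split on each side gives 0.0571).

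Mpst (Entrez 246221, GRCm38.p6 chromosome 15, 78406712 to 78414015) was nearly absent from the knockout libraries, as their labels say. They held 3, 5 and 4 counts of it, or 0.231, 0.283 and 0.275 CPM, while in the wild type 317, 330, 431 and 377 counts were found, which is 25.7, 31.0, 36.3 and 25.8 CPM. The groups did not come near each other. Mpst fell by 6.76 on the log2 scale (SE 0.28, edgeR adjusted p = 9.96e-07). The predicted gene Gm52185 overlaps it.

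Only Tnip1 rose beside it by the same test. Over all tested genes, edgeR called 1 higher and 1 lower at an adjusted p under 0.05, which is 0.00699% in each direction. Tnip1 (Entrez 57783, chromosome 11, 54910787 to 54962956; overlapped by the predicted gene Gm12230) stood at 49.4, 44.6 and 48.9 CPM in the knockout libraries. Wild-type libraries 1 to 4 held 20.3, 21.6, 22.4 and 25.4 CPM, and the chow libraries 18.3, 17.3, 22.9 and 19.7. Every knockout library was above every wild-type library on either diet. The log2 fold change was 1.08 (SE 0.12, adjusted p = 0.0148), with means of 47.7 ± 2.64 CPM (SD, n = 3) against 22.4 ± 2.15 (SD, n = 4). With edgeR the adjusted p was 0.0508 when only the 7 compared libraries were fitted, where DESeq2 gave 3.01e-11, and it was 0.0810 to 0.187 without any of the knockout libraries or of wild-type libraries 1 to 3. The log2 fold change stayed between 1.03 and 1.25 in all alternatives.

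**Figure D1:**
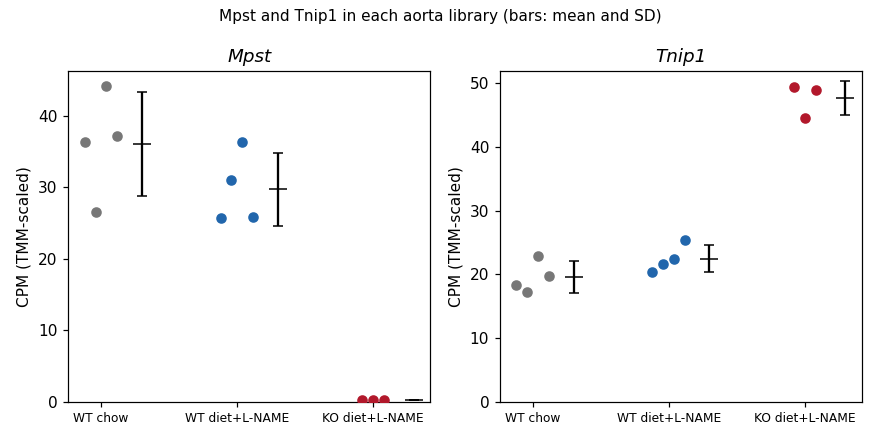
Levels of Mpst and Tnip1 in CPM (vertical axes, from 0) in the 4 chow wild-type, 4 wild-type and 3 knockout libraries on diet with L-NAME; dots are libraries, and the bar beside each group gives its mean and SD. Mpst lies below 0.3 CPM in each knockout library, and Tnip1 at 44.6 to 49.4 CPM there against 17.3 to 25.4 in all 8 wild-type libraries.

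TNIP1 binds ubiquitin chains and A20 and restrains NF-kB, and Tnip1 is itself an NF-kB target. The Tnip1 promoter is therefore shown with those of 3 other pathway genes: Nfkbie (IkB epsilon), Nfkb2 (the p100 precursor) and Nfkbia (IkB alpha). Of these genes only Tnip1 was called with edgeR. Each window runs from 250 bases before to 50 bases after the transcription start in RefSeq (GRCm38.p6), written 5′ to 3′ on the gene's strand. Capitals mark matches to the kappaB consensus on either strand, with overlapping matches joined.
Tnip1, chr11:54962891-54963190, minus strand: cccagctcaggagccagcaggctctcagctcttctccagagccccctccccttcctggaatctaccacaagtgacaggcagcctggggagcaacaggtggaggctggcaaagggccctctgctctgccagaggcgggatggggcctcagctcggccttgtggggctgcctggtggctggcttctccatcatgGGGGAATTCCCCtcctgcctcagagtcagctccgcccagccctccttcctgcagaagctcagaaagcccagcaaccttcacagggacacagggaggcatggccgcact
Nfkbie, chr17:45555450-45555749, plus strand: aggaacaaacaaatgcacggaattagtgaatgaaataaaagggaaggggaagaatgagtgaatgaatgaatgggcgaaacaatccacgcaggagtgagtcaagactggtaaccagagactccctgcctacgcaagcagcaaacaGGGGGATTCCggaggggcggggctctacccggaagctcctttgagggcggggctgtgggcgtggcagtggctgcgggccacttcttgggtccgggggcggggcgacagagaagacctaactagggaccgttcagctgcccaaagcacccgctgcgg
Nfkb2 (the first listed start), chr19:46304487-46304786, plus strand: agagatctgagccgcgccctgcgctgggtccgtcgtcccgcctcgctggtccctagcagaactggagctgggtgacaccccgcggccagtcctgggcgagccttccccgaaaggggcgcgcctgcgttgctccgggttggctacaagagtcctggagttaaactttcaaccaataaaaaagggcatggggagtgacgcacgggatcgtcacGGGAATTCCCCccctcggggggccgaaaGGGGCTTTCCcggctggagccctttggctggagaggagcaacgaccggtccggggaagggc
Nfkbia, chr12:55492598-55492897, minus strand: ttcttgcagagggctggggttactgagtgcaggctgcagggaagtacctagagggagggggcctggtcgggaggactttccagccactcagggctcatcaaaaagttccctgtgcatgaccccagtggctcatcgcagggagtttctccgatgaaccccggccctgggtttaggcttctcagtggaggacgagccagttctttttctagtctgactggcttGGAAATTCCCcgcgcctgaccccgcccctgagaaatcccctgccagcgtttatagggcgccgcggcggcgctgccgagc
In Tnip1 the run lies from position -58 to -47 before the start and matches on both strands. The Nfkbie match lies from -106 to -97, those of Nfkb2 between -39 and -2, and that of Nfkbia from -29 to -20. The consensus occurs in 4.51% of the 32851 promoter windows in RefSeq, in 6.5% of the 11054 tested genes that have a window (counting any start), and in 12 of the 30 tested pathway genes that have one. A match is a string of letters and not a measured site. Of the 7 pathway genes with a window that were higher at an unadjusted p under 0.05, 3 hold it (42.9%, beside 40% of the 30). Those 3 are Tnip1, Nfkbie and Nfkb2, which are among the promoters shown. The raised genes Tnfrsf1b, Map3k14, Birc3 and Traf2 have no match, so the promoters shown are not typical of the list.

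Across the NF-kB list, fold changes leaned upwards, and members other than Tnip1 did not pass the adjusted test. Of 36 genes, 35 were tested, with a median log2 fold change of 0.14 against -0.01 over all genes. An unadjusted p under 0.05 was reached by 9 members with higher levels and 0 with lower ones (25.7% and 0%, beside 3.25% and 1.87% of all tested genes), and in 8 members all knockout libraries lay above all wild-type libraries (22.9%, beside 4.41% of all tested genes), while in 0 they lay below (beside 3.46%). Of the 5 transcription factor subunits, Nfkb2, Relb and Nfkb1 were among them, while Rela had a log2 fold change of 0.24 (SE 0.15) and Rel of -0.15 (SE 0.49). Nfkb2 was at 28.8, 26.2 and 26.8 CPM against 20.2, 18.8, 17.1 and 21.2 (log2 fold change 0.49, SE 0.14, unadjusted p = 0.00593; overlapped by Psd). Its partner Relb was at 29.0, 25.5 and 22.5 CPM against 18.3, 21.5, 19.6 and 17.7. Nfkb1, which encodes p105, had a log2 fold change of 0.28 (SE 0.12). Chow libraries ran from 18.4 to 28.5 CPM for Nfkb2, so its knockout range overlapped theirs. 

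The inhibitors did not move as a block. Nfkbie was at 7.70, 3.74 and 5.02 CPM in the knockout and 2.1 to 3.1 in the wild type (log2 fold change 1.12, SE 0.30, unadjusted p = 0.00322). Nfkbia, the IkB that NF-kB induces fastest, was at 66.9, 82.8 and 82.8 CPM in the knockout, inside a wild-type range from 56.6 to 153 (log2 fold change -0.47, SE 0.38). Tnfaip3 was at 9.85, 6.0 and 4.47 CPM against 5.67, 4.42, 4.21 and 5.68, with knockout library 3 inside the wild-type range (log2 fold change 0.43, SE 0.36, unadjusted p = 0.250). Birc3, a ubiquitin ligase of the TNF receptor complex, was at 13.2 to 14.6 CPM against 9.22 to 12.8. The adhesion molecules that NF-kB induces in endothelium showed small differences: Vcam1 was at 50.1, 60.2 and 64.7 CPM against 44.8, 51.9, 43.3 and 44.4, and Icam1 at 29.2, 22.7 and 20.1 against 18.6, 18.3, 24.3 and 20.9. Their log2 fold changes were 0.34 (SE 0.16) and 0.22 (SE 0.16), and the groups overlapped for both. Leukocyte transcripts, described below, also stood higher in the knockout, and their part in these values was not tested.

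**Figure D2:**
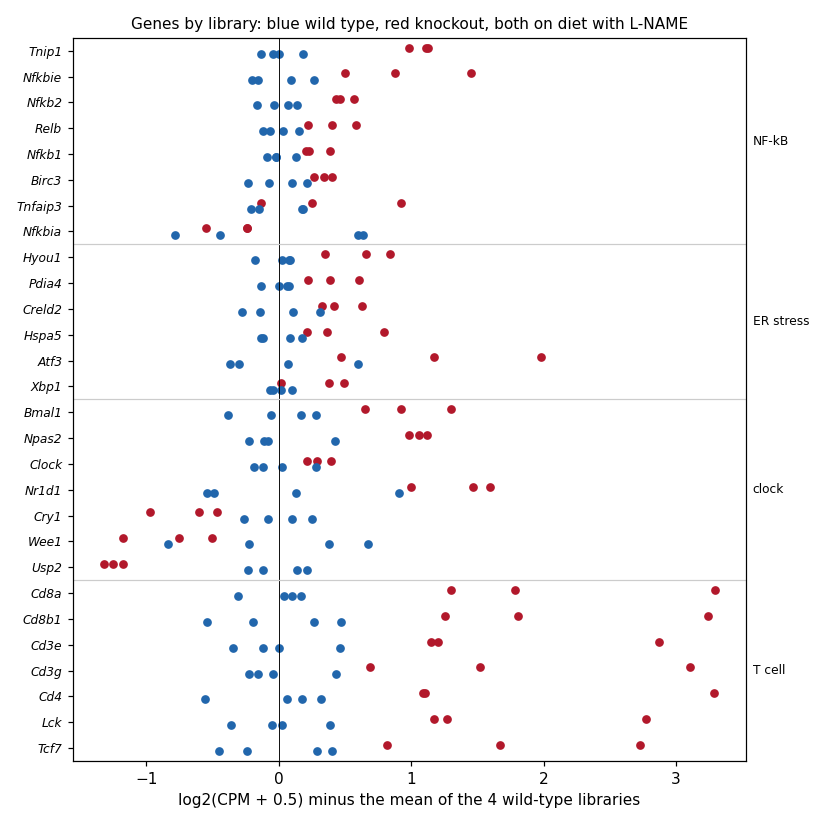
Level of single genes in each library, as log2(CPM + 0.5) minus the mean of the 4 wild-type libraries on diet with L-NAME (horizontal axis), for NF-kB, ER stress, clock and T cell genes; blue dots are wild-type and red dots knockout libraries. The 3 knockout dots of Tnip1 lie close together, away from the wild type, while those of the T cell genes are spread out, with knockout library 1 farthest right.

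Beyond these 2 genes, 732 (5.12%) had an unadjusted p under 0.05 in edgeR, 465 of them higher and 267 lower. That share is close to what the threshold lets through when nothing differs, so the single genes below that were not called are given as values. The counts depended strongly on the tool. DESeq2 on the same 11 libraries called 19 genes higher and 19 lower (0.136% of 14004 genes with an adjusted p in each direction), limma voom with sample weights called Mpst, Tnip1 and Usp2, and DESeq2 on the 7 compared libraries alone, added after the data were seen, called 74.

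**Figure D3:**
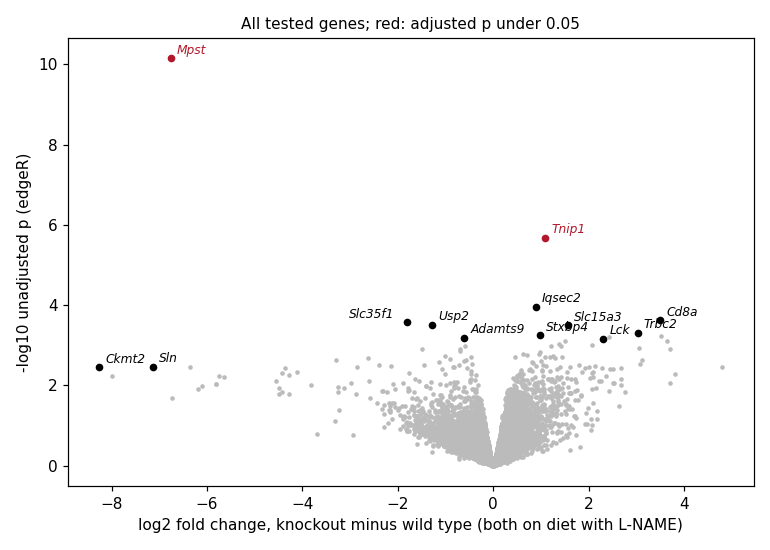
Each of the 14303 tested genes by its log2 fold change, knockout minus wild type on diet with L-NAME (horizontal axis), and -log10 of its unadjusted edgeR p (vertical axis). Mpst and Tnip1, in red, are the genes past an adjusted p of 0.05; labelled black dots are genes given as values in the text, such as Iqsec2, Usp2 and Cd8a.

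Among the genes of smallest p with higher levels, after Tnip1 came Iqsec2, an exchange factor for ARF GTPases known from synapses, at 56.8, 68.1 and 52.0 CPM in the knockout and 34.0, 28.1, 26.6 and 37.8 in the wild type (log2 fold change 0.90, SE 0.15, adjusted p = 0.523; DESeq2 adjusted p = 0.00215). The chow libraries were at 28.6 to 37.8 CPM, so the knockout stood above all 8 wild-type libraries. Slc15a3, a lysosomal peptide transporter of myeloid cells, was at 3.92, 3.06 and 4.26 CPM against 1.13, 1.03, 1.60 and 1.23 (log2 fold change 1.57, SE 0.31), and overlaps Tmem132a. Stxbp4, a syntaxin-binding protein, was at 15.9, 18.8 and 14.6 CPM against 9.48, 9.22, 6.74 and 7.94 (log2 fold change 0.98, SE 0.20). In each of the 3 genes the groups did not overlap. The other genes of smallest p with higher levels, Cd8a, Trbc1, Trbc2, Tcf7, Lck, Cd8b1, Cd52 and Lcp2, are leukocyte genes.

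On the lower side, Slc35f1 and Usp2 had the smallest p after Mpst (0.000271 and 0.000312, unadjusted). Usp2 encodes a ubiquitin-specific protease under circadian control and was at 14.9, 14.1 and 15.7 CPM in the knockout against 30.6, 33.2, 41.9 and 39.6 in the wild type and 23.6 to 49.5 on chow (log2 fold change -1.29, SE 0.25, edgeR adjusted p = 0.656, DESeq2 adjusted p = 0.00432; called with voom). Slc35f1, a solute carrier, was at 1.46, 1.59 and 1.03 CPM against 3.16, 4.61, 3.88 and 7.46. The chow libraries were at 0.655 to 1.10 CPM, so the knockout lay nearer to chow than the treated wild type did. Adamts9, a secreted metalloprotease of the vessel wall, was at 10.0, 10.4 and 9.69 CPM against 14.8 to 15.8 (log2 fold change -0.60, SE 0.13), with 14.1 to 18.8 CPM on chow. Its groups were tight and did not overlap. Rpl22l1, a ribosomal protein paralog, was at 68.2 to 81.6 CPM against 100 to 133, and Gnal, a stimulatory G protein subunit that overlaps Chmp1b and Mppe1, at 0.906 to 1.72 against 3.24 to 4.21.

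Pgm2l1, an enzyme that makes glucose 1,6-bisphosphate, was at 16.4 to 21.7 CPM in the knockout against 23.7 to 34.4 in the wild type. Kif3a, a kinesin motor subunit of ciliary transport, was at 27.7, 31.9 and 35.9 CPM against 88.6, 60.7, 44.2 and 64.9, and overlaps A430108G06Rik. Atox1, a copper chaperone, was at 48.1, 39.9 and 54.9 CPM against 76.2, 87.3, 116 and 76.2. Ttc23 was at 12 to 14.9 CPM against 17.0 to 20.1. Cyp2b10, a drug-metabolising cytochrome P450 of a gene family with close paralogs that could share reads, was at 1.54, 2.21 and 3.51 CPM against 11.8, 15.9, 14.2 and 28.4 (log2 fold change -2.86, SE 0.77, DESeq2 adjusted p = 0.0235). On chow it was at 1.70 to 4.69 CPM in 3 libraries and 21.0 in the other. None of these genes was called with edgeR.

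The remaining genes called with DESeq2 were mostly of leukocytes or striated muscle. Higher were Fgr and Lcp1, a kinase and an actin bundler of leukocytes, the immune-cell myosin Myo1f, the inhibitory receptor Pirb, Cd3e, Cd3g and the tankyrase-binding protein gene Tnks1bp1. The last was at 114, 120 and 118 CPM against 101, 95.8, 102 and 99.8, a small and even difference (log2 fold change 0.24, SE 0.09, DESeq2 adjusted p = 0.0346). Lower were Sln, Smpx, Ckmt2, Tnnc1, Pgam2, Itgb1bp2, Myl4 and Mb, all genes of heart or skeletal muscle. Wild-type libraries 3 and 4, which stand apart in cardiac content, were highest for each of the 8: Sln was at 0.891, 3.95, 70.3 and 156 CPM in wild-type libraries 1 to 4 and at 0.226 to 0.756 in the knockout. Hjv was lower too, at 1.23, 1.70 and 0.756 CPM against 3.16, 2.35, 6.66 and 14.0, and was likewise highest in wild-type libraries 3 and 4. G530011O06Rik (overlapping Mid1), the clock gene Cry1 and the 14-3-3 gene Ywhab, at 324 to 345 CPM against 380 to 412, were lower as well.

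T cell genes stood higher in the knockout, most of all in library 1. The list has 30 T and NK markers, of which 15 passed the filter on low counts. Those that passed did so largely through the knockout libraries, so the full list is described. In 16 of the 30 (53.3%) all knockout libraries lay above all wild-type libraries, 3 of them genes that did not pass the filter. Among tested genes, which all passed it, the share was 4.41%, so the 2 sets are not matched. With no filter, 21 of 30 had higher levels at an unadjusted p under 0.05 (70%, beside 2.73% of all genes in that fit), and 0 members were called with edgeR. Summed CPM of the 30 genes was 165, 63.5 and 81.5 in knockout libraries 1 to 3 and 38.5, 44.7, 55.9 and 39.2 in wild-type libraries 1 to 4. Library 1 was far above the other 2 knockout libraries, which also exceeded the wild type.

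Cd8a, a chain of the coreceptor of cytotoxic T cells, was at 7.54, 2.32 and 1.51 CPM in the knockout and 0.162, 0.376, 0.421 and 0.342 in the wild type (log2 fold change 3.50, SE 0.66, unadjusted p = 0.000241, adjusted p = 0.656). Cd8b1, its partner chain, was at 6.39, 2.04 and 1.24 CPM against 0 to 0.506. Cd4, the coreceptor of helper T cells, was at 8.0, 1.36 and 1.37 CPM against 0.0941 to 0.590, so both classes of T cell transcript were represented. The signalling chain Cd3e was at 4.16, 0.906 and 0.962 CPM against 0 to 0.376 and Cd3g at 7.0, 0.906 and 1.99 against 0.243 to 0.674. Constant regions of the receptor beta chain, Trbc1 and Trbc2, were at 0.825 to 7.46 and 2.27 to 9.70 CPM against 0.162 to 0.411 and 0.324 to 0.927. They are near-identical copies and may share reads. Lck, the kinase that starts receptor signalling, was at 10.5, 3.11 and 3.37 CPM against 0.753 to 1.60. Tcf7, a transcription factor of naive and memory T cells that overlaps Skp1, was at 7.85, 3.51 and 1.72 against 0.421 to 1.16.

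NK and cytotoxic genes were sparse. Klrb1c and Ncr1, NK cell receptors, averaged 0.135 and 0.105 CPM in the knockout and 0.213 and 0.187 in the wild type, close to the level of 3 counts. Gzmb averaged 0.151 and 0.219 CPM. Il2rb, the shared receptor chain for interleukins 2 and 15, was at 5.00, 0.963 and 1.37 CPM against 0.243 to 0.927. This gene starts 0.0725 Mb from the deleted Mpst, and the part of that position in its values was not tested. Over the members that passed the filter, a set shaped by the knockout levels, the median log2 fold change was 2.44 with knockout library 1 and 1.5 without it, which describes how far that library carries the difference. In bulk tissue more cells of a type and more RNA per cell cannot be told apart.

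Macrophage and antigen-presentation genes leaned the same way by less. All 30 macrophage and myeloid markers were tested and all 30 had a fold change above 0, with a median of 0.50. Of these 6 were higher at an unadjusted p under 0.05 (20%, beside 3.25% of tested genes). In 3 the knockout lay wholly above the wild type (10%, beside 4.41% of tested genes), so the groups overlapped for most of the list. Summed CPM was 841, 891 and 1426 in the knockout and 654, 836, 871 and 578 in the wild type, so knockout library 3, not 1, was highest here. Laptm5, a lysosomal protein of leukocytes, was at 46.3, 27.6 and 44.3 CPM against 16.4, 22, 25.5 and 17.4 (log2 fold change 0.95, SE 0.23, unadjusted p = 0.00165). Csf1r, the receptor that macrophages need for survival, was at 40, 39.6 and 66.1 CPM against 25.3, 35, 37.7 and 24.6. Mpeg1, a pore-forming protein of macrophages, was at 27.4, 18.5 and 22.6 CPM against 8.34, 11.9, 12.1 and 7.53. The protease Ctss, which trims the invariant chain, was at 47.6, 40.9 and 52.1 CPM against 22.7 to 33.8. The groups did not overlap for these named genes, of which Mpeg1 and Ctss were chosen after their values were seen.

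MHC class II genes had a median log2 fold change of 0.82 over 13 tested members, with 6 higher at an unadjusted p under 0.05 (46.2%, beside 3.25% of tested genes). Among these were the peptide-loading chain H2-DMb1, at 11.4 to 14.5 CPM against 5.91 to 9.69, and Itgax, at 1.99 to 4.19 against 0.959 to 1.94. Itgax is an integrin of dendritic cells that the list holds. In 3 of the 13 the knockout lay wholly above the wild type (23.1%, beside 4.41% of tested genes). Summed CPM was 786, 466 and 867 in the knockout and 337, 382, 553 and 301 in the wild type, so knockout library 2 lay below wild-type library 3. Adhesion and integrin genes expressed on leukocytes leaned the same way as this list. Itgb2, the common beta chain of leukocyte integrins, was at 16.2, 11.4 and 15.1 CPM against 5.59, 7.43, 9.69 and 5.55, and Selplg, the selectin ligand, at 14.5, 5.72 and 10.3 against 2.46 to 5.48. Of the 21 tested members of the adhesion list 6 were higher (28.6%, beside 3.25% of tested genes) and 1 lower (4.76%, beside 1.87%) at that level, the lower being the endothelial junction gene Jam2 (log2 fold change -0.47, SE 0.19).

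Chemokine and cytokine genes showed 8 of 31 tested members higher and 0 lower at an unadjusted p under 0.05 (25.8% and 0%, beside 3.25% and 1.87% of tested genes). Il7r, the receptor for the lymphocyte survival factor interleukin 7, was at 4.62, 1.47 and 2.06 CPM against 0.674 to 0.891. Cx3cr1, a chemokine receptor of monocytes, was at 6.16, 2.77 and 4.74 CPM against 0.822 to 1.77. Ccl5, a chemokine of T cells, was at 26.6 CPM in knockout library 1 and 2.38 and 2.41 in the others, against 1.03 to 3.03, which left the groups overlapping. Socs3, the feedback inhibitor of interleukin 6 signalling, was at 16.3, 11.6 and 19.9 CPM against 6.07, 6.87, 10.1 and 8.01 (log2 fold change 1.03, SE 0.30, unadjusted p = 0.00582), while Socs2, induced by growth hormone, was at 29.9 to 31.7 against 33.1 to 52.1. The chow libraries covered 7.77 to 17.9 CPM for Socs3, overlapping the knockout. Over the SOCS and JAK-STAT list the median was 0.03.

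Interferon-stimulated genes had a median log2 fold change of 0.15. Among 34 members 1 was higher (2.94%, beside 3.25% of tested genes) and 2 were lower (5.88%, beside 1.87%) at an unadjusted p under 0.05. The lower ones were Ifit3, at 19.8 to 27.6 CPM against 27.0 to 38.0, and Ifit3b, at 5.00 to 6.96 against 8.49 to 11.5. These copies may share reads. Neutrophil and mast cell markers had a median of 0.89 over 10 tested of 19 members. Of the 10, 1 was higher at that level (10%, beside 3.25% of tested genes), the protease Mmp9 (log2 fold change 1.31, SE 0.54). Ly6g and Mpo, which define neutrophils, had 0 counts in all 7 libraries.

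**Figure D4:**
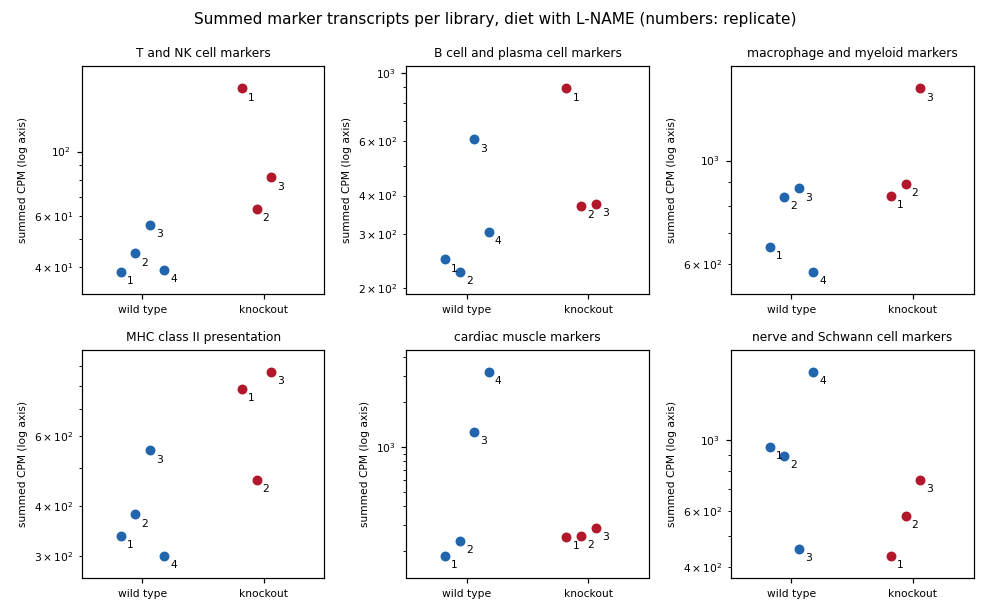
Summed CPM of 6 marker lists (log axes) in the 4 wild-type (blue) and 3 knockout (red) libraries on diet with L-NAME, with replicate numbers beside the dots. T and NK markers separate the groups; B cell markers are high in knockout library 1 and wild-type library 3, cardiac markers in wild-type libraries 3 and 4, and nerve markers are lowest in knockout library 1 and wild-type library 3.

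B cell and heart transcripts differed between libraries more than between groups, and nerve transcripts also varied within groups. The B lineage list had a median fold change of 1.36 (log2) over 15 tested members, yet in 0 of them did the groups separate, and without knockout library 1 the median was -0.22. Igkc, the kappa light chain, was at 182, 42.7 and 39.8 CPM against 18.5, 16.9, 118 and 36.2. Of the 20 cardiac markers 16 passed the filter on low counts, with a median of -3.63. Among these 10 were lower at an unadjusted p under 0.05 (62.5%, beside 1.87% of tested genes). Mb, which encodes myoglobin and overlaps Apol6, was at 1.69, 1.36 and 6.26 CPM in the knockout and 2.27, 20.9, 175 and 417 in the wild type. Without wild-type libraries 3 and 4 the cardiac median was -0.06 and 0 members reached that level. Nerve and Schwann cell markers had a median of -1.16, 24 of 26 below 0, and 0 members with separate groups. Of the 26, 3 were lower and 0 higher at an unadjusted p under 0.05 (11.5% and 0%, beside 1.87% and 3.25% of tested genes). Stmn2, a growth cone protein, was at 18.0, 15.1 and 40.8 CPM against 60.3, 44.7, 23.7 and 89.6. The nerve median stayed below 0, at -2.41 without knockout library 3 and -0.65 without wild-type library 4.

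Clock genes had fold changes in both directions, and none was called with edgeR. DESeq2 called the list members Usp2 and Cry1 lower (adjusted p = 0.00432 and 0.0475). Bmal1, Npas2 and Clock form the activating limb, Nr1d1 represses Bmal1, and Cry1 represses the activators. Over 23 tested members the median was 0.06, and 4 were higher and 3 lower at an unadjusted p under 0.05 (17.4% and 13%, beside 3.25% and 1.87% of tested genes), with 4 members wholly above and 3 wholly below the wild type (beside 4.41% and 3.46% of tested genes). Bmal1 was at 7.08, 5.32 and 4.33 CPM against 3.24, 2.45, 1.85 and 2.94 (log2 fold change 1.08, SE 0.27, unadjusted p = 0.00193). Npas2 was at 4.0, 4.19 and 3.78 CPM against 1.54, 1.51, 1.35 and 2.40 (log2 fold change 1.22, SE 0.40). Cry1 was at 8.62, 11.3 and 12.4 CPM against 18.6, 16.4, 14.4 and 20.8 (log2 fold change -0.70, SE 0.16, unadjusted p = 0.00122). Wee1, a clock-controlled mitotic kinase, was at 14.0, 22.6 and 18.9 CPM against 42.2, 27.6, 17.9 and 51.8, which overlap.

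Nr1d1 was at 157, 144 and 104 CPM in the knockout and 36.6, 56.5, 97.6 and 35.3 in the wild type, with knockout library 3 close to wild-type library 3. On chow it ranged from 39.3 to 178. Thra, the thyroid hormone receptor gene that overlaps Nr1d1 on the opposite strand, was at 81.9, 84.3 and 88.5 CPM against 48.9, 53.8, 44.2 and 62.3, and the deposited counts cannot separate reads of the pair if strand was not used. Both Bmal1 and Nr1d1 stood higher in the knockout, although the protein of the latter represses the former. The labels do not give the hour at which aortas were taken, and its part in these values was not tested. Without knockout library 1, 2 members were higher and 2 lower at that level.

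Genes of endoplasmic reticulum (ER) stress and folding mostly had fold changes above 0, and 0 of them were called with edgeR. Of 28 tested members 24 had a fold change above 0, the median was 0.31, 8 were higher and 0 lower at an unadjusted p under 0.05 (28.6%, beside 3.25% of tested genes), and 7 had knockout libraries wholly above the wild type (25%, beside 4.41%). Hyou1, a large ER chaperone, was at 55.9, 69.5 and 79.0 CPM against 46.2, 38.8, 46.6 and 44.6 (log2 fold change 0.63, SE 0.15, unadjusted p = 0.00164, adjusted p = 0.726). Hspa5, which encodes BiP and overlaps Rabepk, was at 373, 414 and 559 CPM against 363, 296, 293 and 341, with knockout library 1 close to wild-type library 1. The disulfide isomerase Pdia4 was at 58.6, 65.9 and 77.1 CPM against 52.6, 45.7, 50.3 and 53.3, and Creld2, a secreted ER stress protein, at 29.8, 31.7 and 36.7 against 29.4, 19.4, 21.4 and 25.5. The chow libraries were at 43.6 to 63.5 CPM for Hyou1 and 54.7 to 69.6 for Pdia4, so chow overlapped the knockout for both genes, and the wild type on diet with L-NAME for Hyou1 but not for Pdia4. In all of these, knockout library 3 was highest and library 1 lowest. Without library 3 the list had 3 members at that level.

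Atf3, a stress-induced transcription factor in both the ER list and the immediate early list, was at 26.8, 77.2 and 44.0 CPM against 20.2, 14.8, 29.4 and 15.5 (log2 fold change 1.31, SE 0.32, unadjusted p = 0.00206). Knockout library 1 lay inside the wild-type range. Fosl2, an AP-1 subunit, was at 60.2, 100 and 71.8 CPM against 47.7 to 54.8, and Arc, an activity-induced gene of neurons, at 11.7, 17.1 and 13.3 against 5.73 to 7.05. Of the 24 tested immediate early genes 3 were higher and 0 lower at an unadjusted p under 0.05, with a median of 0.42. These are 12.5% and 0%, beside 3.25% and 1.87% of tested genes. Handling of tissue is known to induce such genes quickly, and its part here was not tested. Knockout library 2 was highest for Atf3, Fosl2 and Arc. The summed level of that list was 1925, 2706 and 1998 CPM in the knockout and 1490 to 1924 in the wild type.

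**Figure D5:**
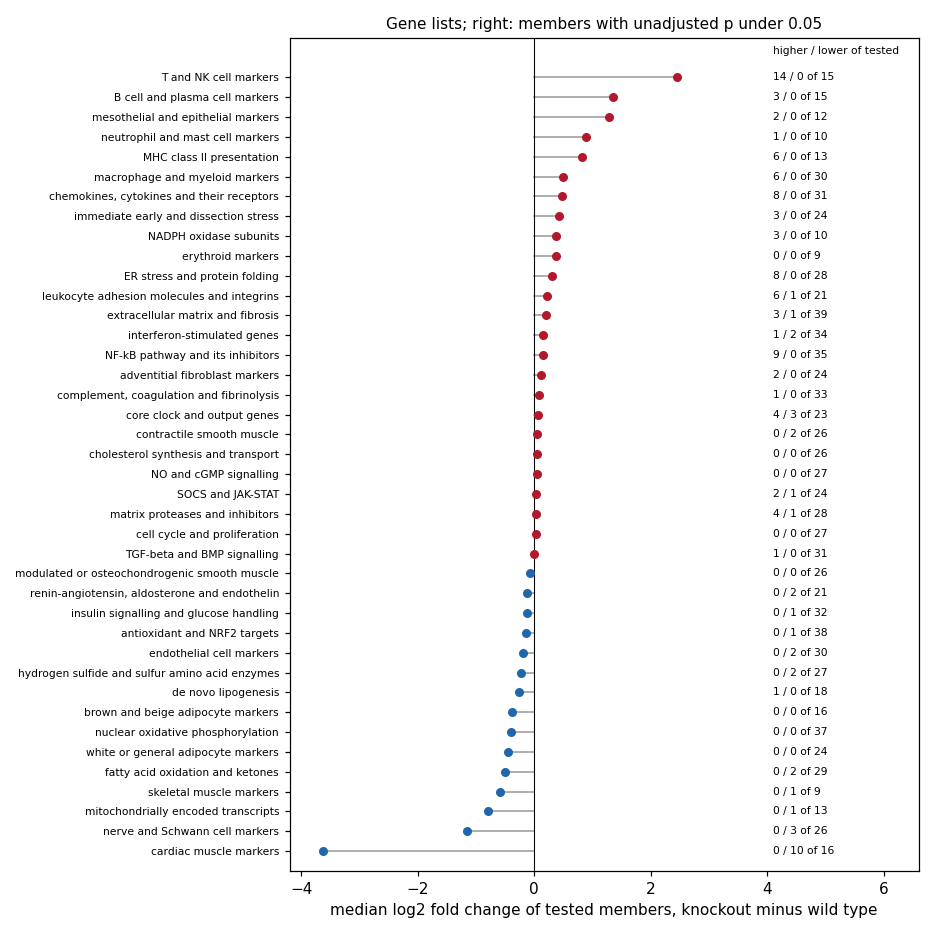
Median log2 fold change of the tested members of each of 40 gene lists, knockout minus wild type on diet with L-NAME (horizontal axis), drawn from the median of all tested genes; red lists lie above that median and blue lists below. Figures at the right count members higher and lower at an unadjusted p under 0.05 out of those tested; leukocyte and mesothelial lists lie at the top and cardiac and nerve lists at the bottom.

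In the vessel wall itself, most lists lay near 0. Endothelial markers had a median of -0.20 with 25 of 30 below 0. Of the 30, 2 were lower at an unadjusted p under 0.05 (6.67%, beside 1.87% of tested genes). Sox17, a transcription factor of arterial endothelium, was at 17.2, 14.6 and 16.4 CPM in the knockout against 24.1, 20.7, 29.2 and 21.6 in the wild type and 8.20 to 10.3 on chow (log2 fold change -0.57, SE 0.15, unadjusted p = 0.00232). Its knockout level lay between those of the other groups. Tal1 was at 3.85 to 4.39 CPM against 4.94 to 7.15. The endothelial median was 0.02 without wild-type libraries 3 and 4. Contractile smooth muscle genes had a median of 0.05, and Acta2 was at 10018, 12139 and 8915 CPM against 9786, 6882, 4886 and 11198. The 2 lower members were Pln and Casq2 (7.69%, beside 1.87% of tested genes). Both are also heart genes and were highest in wild-type libraries 3 and 4. In the modulated smooth muscle list 0 of 26 reached that level, and Mgp, an inhibitor of calcification, was at 3101 to 3758 CPM against 3458 to 5924.

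Matrix genes differed singly. Col8a1, a short-chain collagen of remodelling intima, was at 24.5, 28.3 and 20.4 CPM in the knockout, 56.7, 36.3, 45.8 and 35 in the wild type and 9.64 to 17.8 on chow (log2 fold change -0.83, SE 0.22, unadjusted p = 0.00342). As with Sox17, the knockout lay between the other groups. Plaur, the urokinase receptor, was at 11.5 to 14.8 CPM against 7.81 to 11. Over the list of matrix proteases 4 of 28 were higher (14.3%, beside 3.25% of tested genes) and 1, Adamts9, lower (3.57%, beside 1.87%). Smad3, which carries TGF-beta signals, was at 19.5, 20.8 and 19.3 CPM against 12 to 15 (log2 fold change 0.53, SE 0.15) in a TGF-beta and BMP list whose median was -0.00015. Among adventitial fibroblast markers Gli1, a hedgehog-responsive factor of adventitial progenitors that overlaps Arhgap9, was at 17.2, 20.7 and 16 CPM against 11 to 12, and Pdgfra at 37.4 to 46.5 against 29.7 to 35.6.

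Genes of vascular tone showed few differences, and 0 were called with edgeR. In the NO and cGMP list 0 of 27 tested members reached an unadjusted p under 0.05 and the median was 0.05. Nos3, the endothelial nitric oxide synthase that L-NAME inhibits, was at 46.9, 41.3 and 52.0 CPM against 49.6, 38.0, 63.4 and 55.6 (log2 fold change -0.14, SE 0.36; overlapped by Atg9b). Edn1, the vasoconstrictor endothelin 1, was at 15.8, 17.7 and 12.9 CPM against 22.7, 17.1, 25.1 and 29.0, and overlapped between groups by a single wild-type library. Agtr1a, the main angiotensin receptor of smooth muscle, was at 3.08, 3.74 and 4.12 CPM against 6.07, 7.62, 6.15 and 11.6 (log2 fold change -1.11, SE 0.43, unadjusted p = 0.0271). These 2 were the lower ones at that level among 21 tested genes of the renin-angiotensin and endothelin list, in which 0 were higher. The shares are 9.52% and 0%, beside 1.87% and 3.25% of tested genes.

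The other enzymes of hydrogen sulfide and sulfur amino acid metabolism were not called. Of 27 tested members, Mpst included, 20 had a fold change below 0, with a median of -0.24. Again with Mpst included, 2 were lower and 0 higher at an unadjusted p under 0.05 (7.41% and 0%, beside 1.87% and 3.25% of tested genes). In 3 all knockout libraries lay below all wild-type libraries (11.1%, beside 3.46% of tested genes). Tst, the paralog and chromosomal neighbour of Mpst, was at 18.5, 16.7 and 26.6 CPM against 17.6, 41.3, 75.8 and 13.7 (log2 fold change -0.84, SE 0.59), a wide wild-type range that holds all knockout values. Cth was at 0.770 to 1.79 CPM against 1.16 to 3.79, and Cbs at 1.86 to 2.94 against 1.26 to 3.22. Both enzymes were thus scarce in the aorta next to Mpst in number of reads, without a correction for transcript length. Txn1, cytosolic thioredoxin, had means of 152 and 193 CPM (log2 fold change -0.34, SE 0.13). Txnip, the thioredoxin inhibitor, was at 591, 680 and 691 CPM against 963, 868, 1004 and 1034 (log2 fold change -0.56, SE 0.20, unadjusted p = 0.0151; overlapped by Gm15441). Its groups did not overlap.

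Energy metabolism genes mostly had fold changes below 0, and the groups overlapped for most of them. All 37 nuclear genes of oxidative phosphorylation were below 0, with a median of -0.40, and 0 of them reached an unadjusted p under 0.05. All 13 protein-coding genes of the mitochondrial genome were below 0, with a median of -0.80 and 1 at that level (7.69%, beside 1.87% of tested genes). In COX2 and COX3 all knockout libraries lay below all wild-type libraries (15.4%, beside 3.46%). COX3 was at 64.3, 37.8 and 38.1 CPM against 123, 144, 251 and 65.2 (overlapped by ATP6). Fatty acid oxidation genes were below 0 in 28 of 29, with a median of -0.50. In each of these lists wild-type libraries 2 and 3 were high, and libraries 1 and 4 lay within or near the knockout range: the nuclear list summed to 14109, 8420 and 12929 CPM in the knockout and 9956, 20255, 22798 and 10299 in the wild type. White fat markers were highest in the same libraries, at 13217 to 23164 CPM in the knockout and 15355, 28748, 45414 and 10597 in the wild type, and brown fat markers were also highest in wild-type libraries 2 and 3. Gpx3, a secreted selenium peroxidase, was at 301 to 474 CPM against 462, 1289, 1287 and 679. Lep, which encodes leptin, went against its list at 99.7, 100 and 130 CPM against 45.5, 26.9, 91.6 and 41.2 (log2 fold change 1.10, SE 0.55).

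The groups did not overlap for Glul, Fmo1, Fdft1 and Srebf2, as in 7.87% of all tested genes. Glul, Fmo1 and Fdft1 were chosen after their values were seen. Glul, glutamine synthetase, was at 342, 271 and 387 CPM against 523, 723, 1038 and 560. Fmo1, a flavin monooxygenase, was at 142, 135 and 125 CPM against 218, 302, 349 and 179. Fdft1, squalene synthase, which overlaps Ctsb, was at 41.9, 34.2 and 37.4 CPM against 58.4, 63.4, 78.4 and 59.6 (edgeR unadjusted p = 0.143). Srebf2, a regulator in the cholesterol list, was at 54.4, 65.6 and 55.1 CPM against 46.4, 34.9, 35.4 and 52.6 (edgeR unadjusted p = 0.0656). Mest, an imprinted growth gene that overlaps Copg2, was at 10.2, 20.2 and 21.1 CPM against 5.10, 5.36, 4.55 and 10.6 and 1.30 to 1.82 on chow. Wild-type library 4 lay above knockout library 1. In the cell cycle list 0 of 27 genes reached an unadjusted p under 0.05.

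The deleted locus and Tnip1 were looked at together with their neighbours. Within 2 Mb of Mpst 93 other genes were tested, and 8.6% had an unadjusted p under 0.05, 7 higher and 1 lower, beside 5.12% of all genes. The groups did not overlap in 7.53%, beside 7.87% of all genes. Several of the higher neighbours are leukocyte genes: Ncf4, a phagocyte oxidase subunit, at 5.23, 2.32 and 4.06 CPM against 0.616 to 2.02, Il2rb, Rac2, Cyth4 and Apobec3. Most of these lay close to Mpst: Ncf4 at -0.163 Mb, Il2rb at 0.0725, Rac2 at 0.152 and Cyth4 at 0.190, with Apobec3 at 1.49. Between Ncf4 and Cyth4, the genes Csf2rb2, Csf2rb, Tst, Kctd17 and C1qtnf6 did not reach that level. The part of position beside the deleted locus, or of leukocyte content, in these values was not tested. The lower neighbour was Mb. Around Tnip1 31 genes were tested, a window chosen after its values were seen. Of these 0 were higher and 3 lower (Kif3a, Atox1 and the low-count Gdf9, which overlaps Uqcrq), 9.68% in all, and 12.9% had groups that did not overlap, all with the knockout below.

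In the authors' deposited table for the same comparison, 61 genes had an adjusted p under 0.05, 38 higher and 23 lower (0.251% and 0.152% of 15119). Of these 60 were tested here, and in all 60 the edgeR fold change had the same sign, with 57 at an unadjusted p under 0.05. The table was made from the same libraries, so this is no independent support. DESeq2 on 11 libraries called 23 of them (37.7% of the authors' calls and 60.5% of its own 38), and DESeq2 on the 7 compared libraries 60. Fold changes of low genes in the authors' deposited table are smaller, 1.12 for Cd8a against 3.50 here, and its largest standard error is 0.242. The authors' deposited table ranks Mpst (-4.34), Tnip1 (0.999), Usp2 (-1.15), Cyp2b10 (-1.62) and Arc (0.97) first by adjusted p.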

How the data were processed

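RNA was isolated from aortas with TRIzol and made into libraries with the NEBNext Ultra II kit, per the labels' protocols. The authors deposited whole-number read counts per Entrez gene, not normalized; per the submitters' processing notes they used Trimmomatic 0.39, HISAT2 2.2.1, featureCounts 2.0.3 and GRCm38/mm10. Strand use, multi-mapped reads and annotation are not given in the sources used here, so reads of overlapping genes cannot be told apart. The authors' deposited comparison, from DESeq2 (Galaxy 2.11.40.7) per the submitters' processing notes, holds a mean normalized count (a signal), a log2 fold change with its SE, a Wald score and p-values before and after adjustment for each gene; its model is not stated.

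In R 4.3.3, edgeR 4.0.16 was run on the deposited counts of all 11 libraries: filterByExpr, TMM factors, 1 mean per group, robust glmQLFit and a two-sided glmQLFTest, with Benjamini-Hochberg adjustment over 14303 genes and calls under 0.05. CPM use TMM-scaled sizes. Total counts of the 7 libraries set the precision; floors of 3 counts cover counting error only. Alternatives used DESeq2 1.42.0, limma 3.58.1 voom, other scaling and filters, marker covariates, a replicate block and left-out libraries. The procedures were checked on simulated counts. Promoters are from RefSeq.

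The 40 gene lists (1007 genes, 3 not found) and the members were chosen with earlier results of these data known; lists are described by counts and medians, without a list test. Named genes are Mpst, the called genes, up to 12 per direction of smallest p (mean CPM of 1 or more, groups not overlapping, no predicted models), the called or 2 leading members of each list, and Cth, Cbs, Tst, Nos3, Tnip1, Tnfaip3, Vcam1, Icam1 and Nfkbia. The other genes were named after their values were seen. Some items of the lists are not reported here.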

Additional observations from a re-analysis of the deposited data

Results flagged for a closer look

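In 7 of 150 groups of 4 libraries, a single wild-type library stood so far from the rest that its gap to the nearest library reached the 95% limit as a share of the group's range (Dixon's test); chance gives about 1 in 20. For Mest wild-type library 4 stood high at 10.6 CPM (gap over range 0.866). In the same library Ncf4 was low at 0.616 CPM (0.833) and Ifit3b low at 8.49 CPM (0.875). In wild-type library 3, which is rich in B cell and cardiac transcripts, Socs2 was low at 33.1 CPM (0.883) and Mmp9 high at 5.06 CPM (0.890). In wild-type library 2 Vcam1 was high at 51.9 CPM (0.83) and ND3, a mitochondrially encoded subunit, at 112 CPM (0.920).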

How the results depend on the processing

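Mpst was called lower in every alternative. The number of genes called higher (1) was 0 with only the 7 compared libraries, with the B cell covariate, and without both libraries rich in cardiac or both rich in B cell transcripts (Tnip1 adjusted p = 0.0508, 0.157, 0.173 and 0.462), 19 with DESeq2 and 41 with DESeq2 on 7 libraries (an alternative chosen after seeing the data). Leaving out 1 library gave 0 to 1, with Tnip1 kept only without wild-type library 4 among the compared ones. The number called lower (1) was 19 with DESeq2, 2 with voom and 33 with DESeq2 on 7 libraries. With the replicate block 0 genes were called higher and 1 lower, and Tnip1 was at 1.12 (adjusted p = 0.0682); numbers did not pair the samples (correlations of same-numbered libraries -0.226, -0.205 and -0.071). Without scaling factors the median of all genes was 0.15 in place of -0.01. Signs turned for genes with no call: Nos3 at 0.0195 without scaling factors, 0.16 with the cardiac covariate and 0.0922 without both cardiac-rich libraries; Cbs at -0.0330 with that covariate and -0.0336 without both B cell-rich libraries, and from -0.17 (without knockout library 2) to 0.33 (without wild-type library 4) when 1 library was left out; Cth at 0.0370 and Tnfaip3 at -0.00461 without both B cell-rich libraries; Igkc at -0.23 with the B cell covariate and from -0.22 (without knockout library 1) to 1.88 (without wild-type library 3) when 1 was left out. Of 880 list medians under alternatives 50 moved by more than the spread, and 86 gene values newly passed the threshold, with DESeq2 or voom; the cause was not tested. Depth limits T and NK cell genes, many near 3 counts.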
